A study of Mus musculus with 6 samples.

Results

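The genes examined were those of the cytosolic ribosomal proteins, measured in frontal cortex RNA of 3 mice taken 10 days after microglia depletion and of 3 littermate control mice. They were found by symbol: Rpl or Rps followed by a digit, or Rpsa, Rplp0, Rplp1 or Rplp2, without the ribosomal S6 kinase genes and without symbols that contain "-ps". Of 23366 genes in the table, 86 matched, and 84 of them had a mean of at least 0.5 FPKM (FPKM counts sequenced fragments per length of transcript, scaled to the depth of the library) over the 6 mice, out of 14385 genes that reached this mean. The 2 below it were Rpl10l and Rpl39l, which were at 0 in all 3 depleted mice and did not exceed 0.17 FPKM in any control mouse. The 84 genes comprise 77 core proteins (31 of the small and 46 of the large subunit), 6 paralogs or relatives of core genes (Rpl3l, Rpl7l1, Rpl22l1, Rpl36al, Rps27l and Rps4y2) and Rps19bp1, which matches the symbol rule but encodes a binding partner of Rps19 and no ribosomal protein.

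All 6 mice were on the C57BL/6 background and carried CX3CR1-CreERT2+/–, a tamoxifen-inducible Cre recombinase driven by the CX3CR1 promoter, and per the study's methods both genotypes were given tamoxifen. The depleted mice, A4, A5 and A6, carried iDTR+/– as well, a diphtheria toxin receptor that Cre switches on, and then received diphtheria toxin. The control mice, A1, A2 and A3, carried no iDTR, and whether they received the toxin is not stated in the sources used here, so an effect of the toxin cannot be told apart from that of the depletion. The CX3CR1 promoter drives Cre in microglia and in other cells of the myeloid lineage. The study left a wait between tamoxifen and toxin, in which new cells replaced the peripheral monocytes. It describes the microglia of day 10 as repopulated and activated. Each mouse gave 1 library. The study's methods call the genotypes matched for age and sex without giving either for a single mouse, and the levels of Xist and of Y-linked genes, given with the X-linked members, set A3 and A4 apart from the other mice.

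A ribosome reads an mRNA on its small subunit and joins amino acids on its large subunit, and each cytosolic ribosome holds about one copy of nearly every ribosomal protein. The mRNAs of these proteins are short and abundant, and most begin with a tract of pyrimidines, the 5′ terminal oligopyrimidine (TOP) motif, through which LARP1 and mTORC1 set how strongly they are translated. RNA levels do not show that step. In bulk tissue, fewer cells of a type and less RNA per cell cannot be told apart.

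Estimated depth and the summed levels of some cell type markers differed between the groups. Spacing of the low FPKM values gave about 14.7 to 20.4 M fragments per control library and 10.7 to 13.8 M per depleted library, with an ambiguous estimate in A5, where 14.2 M scored nearly as well. Mouse A4 stood apart on the first principal component, which held 40.7% of the variance, at 37.8 against -14.0 to -0.56 in the other mice, and the summed level of 19 type I interferon response genes was 529 FPKM in A4, 99.6 and 96.2 in A5 and A6, and 35.6 to 50.5 in the control mice. Neuronal markers, which define the tissue, were all detected (15 of 15, summed 4951 to 5525 FPKM in control and 4609 to 5160 in depleted mice), as were 18 of 18 microglial markers (235 to 287 and 278 to 435 FPKM). The groups did not overlap in the sums of 10 choroid plexus markers (243 to 419 FPKM in control, 122 to 138 in depleted mice) and of 10 oligodendrocyte markers (3078 to 3347 and 2705 to 2802 FPKM). The sums over 10 astrocyte markers were 1247 to 1416 and 1263 to 1385 FPKM, those over 10 endothelial and mural markers 56.9 to 60.05 and 59.5 to 64.2, those over 10 monocyte and border macrophage markers 8.80 to 9.40 and 6.57 to 11.02, and those over 6 blood markers that the table lists 56.03 to 105 and 13.8 to 104. No marker of these lists was at 0 in all 6 mice, and the part of these marker levels and of depth in the values that follow was not tested.

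Ribosomal protein mRNAs were slightly more abundant in depleted than in control cortex, by an amount that no single gene carried past the adjusted threshold. Of the 84 genes, 71 were higher on average in the depleted mice (84.5%, against 48% of all genes tested), and the median difference was 0.13 on the log2(FPKM + 1) scale, against -0.01 for all genes. In a limma fit over all 14385 genes, 0 of the 84 genes had a Benjamini-Hochberg adjusted p-value under 0.1, against 0.0278% of all genes (4 genes), and the lowest adjusted p-value among the 84 was 0.225, of Rpl39. At an unadjusted p-value under 0.05, 21 of the 84 genes (25%) were higher and 1 was lower, against 4.79% and 5.74% of all genes. In 16 of the 84 (19.0%) every depleted mouse lay above every control mouse, against 8.21% of all genes, and in none did every depleted mouse lie below, against 9.38%.

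The mice of each group differed among themselves as much as the groups did. The median of the 84 genes, relative to the mean of the control mice on the log2 scale, was 0.01 in A1, -0.12 in A2 and 0.10 in A3, and 0.20 in A4, 0.03 in A5 and 0.16 in A6. A5 thus lay below the control mouse A3, and the range among the control mice (0.22) was wider than the difference between the group means of these medians (0.13). The genes went up and down together from mouse to mouse: in A2, 1 of the 84 lay above the control mean, in A3 83 did, and A2 was the lowest of all 6 mice for 64 of them. A4 lay above every control mouse for 61 genes, A6 for 49 and A5 for 23. Over the 6 mice, the correlation of a gene with the mean of the other 83 had a median Pearson's r of 0.84 and was above 0.8 for 51 genes, as a description, since all genes share the same 6 libraries. The exceptions below 0 were Rps4y2 (-0.27), Rpl34 (-0.21) and Rpsa (-0.16).

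**Figure D1:**
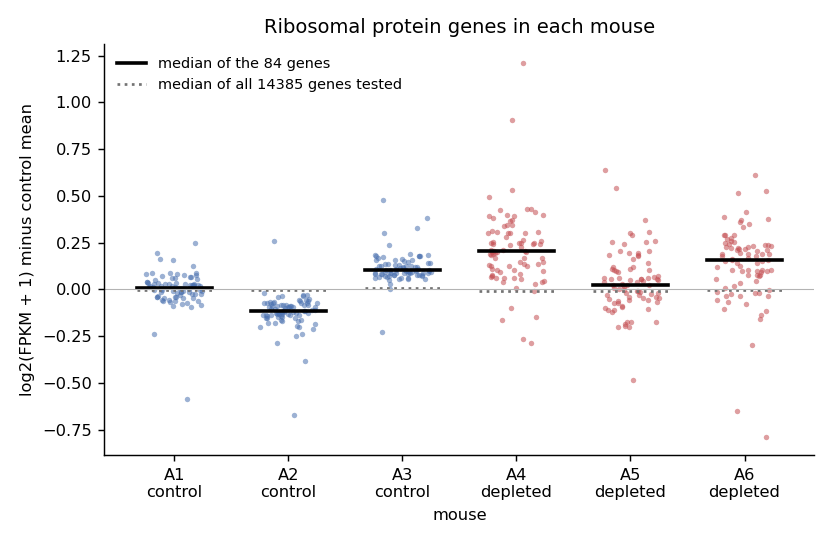
Level of each of the 84 ribosomal protein genes in each mouse, as log2(FPKM + 1) minus the mean of the 3 control mice (vertical axis), with 1 point per gene, blue for control and red for depleted mice. The solid line is the median of the 84 genes, which ran from -0.12 in A2 to 0.20 in A4 and in A5 (0.03) lay below A3 (0.10), while the dotted line, the median of all genes tested, stayed within 0.01 of 0.

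Summed over the 84 genes, the level in mouse order was 25297, 23340 and 27424 FPKM in the control group, then 29254, 26118 and 28201 FPKM in the depleted group. These sums were 6.39%, 5.94% and 6.72% of all FPKM in the control mice and 7.30%, 6.62% and 6.99% in the depleted mice, so that A5 again fell among the controls. The group means were 25354 ± 2043 and 27858 ± 1596 FPKM (SD, n = 3). Both subunits showed it. The 31 small subunit genes summed to 10566 ± 934 and 11458 ± 514 FPKM, with a median log2 difference of 0.12 and 25 of 31 genes higher on average. The 46 large subunit genes summed to 14425 ± 1091 and 15975 ± 1044 FPKM, with a median of 0.14 and 41 of 46 higher.

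Each mouse was also left out in turn. Without A4, the mouse with the strongest interferon response, the median was 0.09, 62 of the 84 genes were higher on average and 15 (17.9%) were higher at an unadjusted p-value under 0.05, against 5.99% of all genes in that fit. Without the control mouse A2, the median was 0.07 and 62 genes were higher on average. At that p-value 7 genes (8.33%) were higher, against 2.61% of all genes in that fit, and 3 were lower. The share of all genes lower at that p-value was 5.74% with all mice and was not counted without A2. Without A3 the median was 0.18 and 29 genes were higher at that p-value (34.5%, against 3.07%). Without A1 and without A6 there were 10 (11.9%, against 2.48%) and 14 (16.7%, against 5.92%). Without A5 there were 28 (33.3%, against 6.91%), and 1 gene, Rpl39, had an adjusted p-value under 0.1 (0.0705), among 29 genes (0.202%). With all mice but with array weights, 12 (14.3%, against 5.05%) were higher at the unadjusted p-value and Rpl39 passed the adjusted threshold (0.139% of all genes did), and with eBayes without trend 11 were (13.1%, against 4.45%).

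In the large subunit the clearest single gene was Rpl39, which encodes a very small protein of the wall of the exit tunnel, through which the growing chain leaves. The control mice stood at 237, 239 and 256 FPKM (in the order A1, A2, A3) and the depleted mice at 353, 316 and 372 FPKM (A4, A5, A6). The 3 depleted mice lay above the 3 control mice with a wide gap, by 0.51 ± 0.08 on the log2 scale (1.42-fold), with an unadjusted limma p-value of 0.000172 and an adjusted one of 0.225. With 1 mouse left out the difference ran from 0.45 to 0.57. Its adjusted p-value was under the threshold in 2 alternatives, with array weights (0.0950) and without A5 (0.0705). In the other alternatives that kept all 6 mice it ran from 0.134 to 0.411, and it was 0.892 without A1, 0.747 without A2, 0.566 without A3, 0.126 without A4 and 0.258 without A6. The exact two-sided permutation p-value was 0.1, the smallest that 3 mice against 3 can give, and this held for each of the 16 genes whose groups did not overlap. Rpl39 (ENSMUSG00000079641 in GENCODE M21) lies on the X chromosome, from 37082520 to 37085402.

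Rpl38, a small protein at the surface of the large subunit, was listed at 539, 505 and 634 FPKM in the control and 731, 663 and 681 FPKM in the depleted mice, in mouse order. The difference was 0.31 ± 0.09, without overlap (unadjusted p = 0.00975, adjusted p = 0.378, limma). Rpl35a, mutated in some families with Diamond-Blackfan anaemia, an inherited failure to make red cells, had 367, 349.6 and 388 FPKM in control and 456, 405 and 472 FPKM in depleted mice. Its difference of 0.27 ± 0.08 also left the groups apart (unadjusted p = 0.00903, adjusted p = 0.378). Rpl9 was at 514, 475 and 534 FPKM and 599, 627 and 573 FPKM, and here A5 was the highest of the 6 mice (difference 0.24 ± 0.07, unadjusted p = 0.00954). Rpl24, which reaches across to the small subunit in one of the bridges between both, was at 316, 322 and 357 FPKM and 432, 374 and 384 FPKM (difference 0.26 ± 0.08, unadjusted p = 0.0124). In Rpl32, the lowest depleted mouse, A5 at 385 FPKM, was only just above the highest control mouse, A3 at 379 FPKM, and the difference was 0.27 ± 0.09 (unadjusted p = 0.0155). Rpl37 and Rpl21 likewise kept the groups apart, with means of 253 ± 31.99 and 306 ± 6.54 FPKM for Rpl37 and of 216 ± 15.3 and 249.8 ± 10.8 FPKM for Rpl21 (SD, n = 3).

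**Figure D2:**
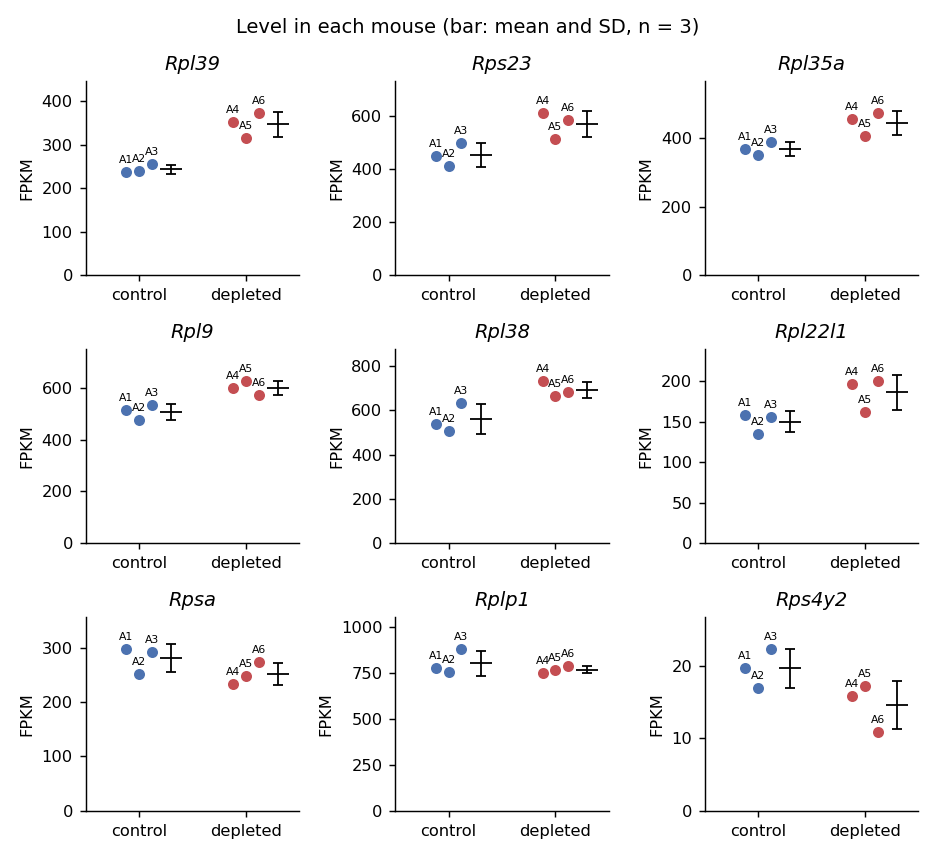
FPKM (vertical axis, from 0) of 9 genes in the 3 control mice (blue) and the 3 depleted mice (red), with 1 point per mouse and, to the right of each group, its mean and SD. The groups are apart in Rpl39, Rps23, Rpl35a, Rpl9, Rpl38 and Rpl22l1, and overlap in Rpsa, Rplp1 and Rps4y2, which were lower on average in depleted mice.

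In the small subunit, the smallest p-value was that of Rps23, a protein of the decoding centre, with 451, 411 and 500.2 FPKM in the control and 611, 515 and 585 FPKM in the depleted mice. The difference was 0.33 ± 0.10 on the log2 scale, without overlap (unadjusted p = 0.00809, adjusted p = 0.378, limma). Rps25 had nearly the same difference, 0.33 ± 0.11, from 317, 314 and 358 FPKM to 426, 353 and 471 FPKM, but its groups overlapped, since A5 lay below A3. Rps27a, made as a fusion with ubiquitin that is cut off afterwards, was at 392.6, 346 and 418 and 512, 413 and 483 FPKM, and A5 lay below A3 here too (difference 0.28 ± 0.10, unadjusted p = 0.0235). The groups of Rps13 did not overlap (256 ± 18.9 and 313 ± 41.00 FPKM, SD, n = 3), and neither did those of Rps15a, a gene at the low end of the core set (39.2 ± 2.96 and 45.2 ± 1.60 FPKM).

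A minority of core genes, 11 of 77, were lower on average in the depleted mice, and none of them reached an unadjusted p-value under 0.05. The largest of these differences was that of Rpsa, which serves both as a protein of the small subunit and as a receptor for laminin. It stood at 297, 252 and 293 FPKM in control and 233, 248 and 274 FPKM in depleted mice, with overlapping groups (difference -0.16 ± 0.09, unadjusted p = 0.121). In Rps10 and Rps15 the differences were -0.04 ± 0.07 and -0.01 ± 0.09, smaller than their standard errors. In the large subunit, Rpl28 differed by -0.07 ± 0.09 and Rpl30 by -0.13 ± 0.16, again by less than their standard errors.

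The stalk of the large subunit, built of Rplp0 and of pairs of Rplp1 and Rplp2, binds the elongation factors. Rplp1 was one of the most abundant of all 84, at 778, 756 and 883 FPKM in control and 751, 770.5 and 789 FPKM in depleted mice, and the control mouse A3 was the highest of the 6 (difference -0.06 ± 0.08). Rplp0, often used as a reference gene in PCR, was at 167, 148 and 172 and 184, 149 and 162 FPKM (difference 0.02 ± 0.10). Rplp2 was at 290.3, 264 and 303 and 339, 324 and 282 FPKM (difference 0.14 ± 0.09). The unadjusted p-values were 0.445, 0.834 and 0.16, and the groups overlapped in each. The sign of the Rplp0 difference turned without A4 (-0.06), without A2 (-0.04) and with array weights (-0.04), and that of Rplp1 without A3 (0.01).

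Grouped by place in the ribosome, the 8 listed proteins at the exit tunnel had a median difference of 0.16, all 8 higher on average, 2 of them at an unadjusted p-value under 0.05, where of all genes tested 48% were higher on average and 4.79% higher at that p-value. The 9 proteins along the mRNA path had a median of 0.00, with 5 higher and 4 lower on average and 1 higher at that p-value. The 4 proteins of the stalk and its base had a median of 0.04, and 0 passed. Rpl5 and Rpl11, which with the 5S RNA form a particle that can bind Mdm2 when ribosome assembly is disturbed, differed by 0.11 ± 0.08 and 0.24 ± 0.10. The 9 genes listed for Diamond-Blackfan anaemia had a median of 0.11, with 8 higher on average and 2 at that p-value. The groups are small and were not compared with each other by a test.

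**Figure D3:**
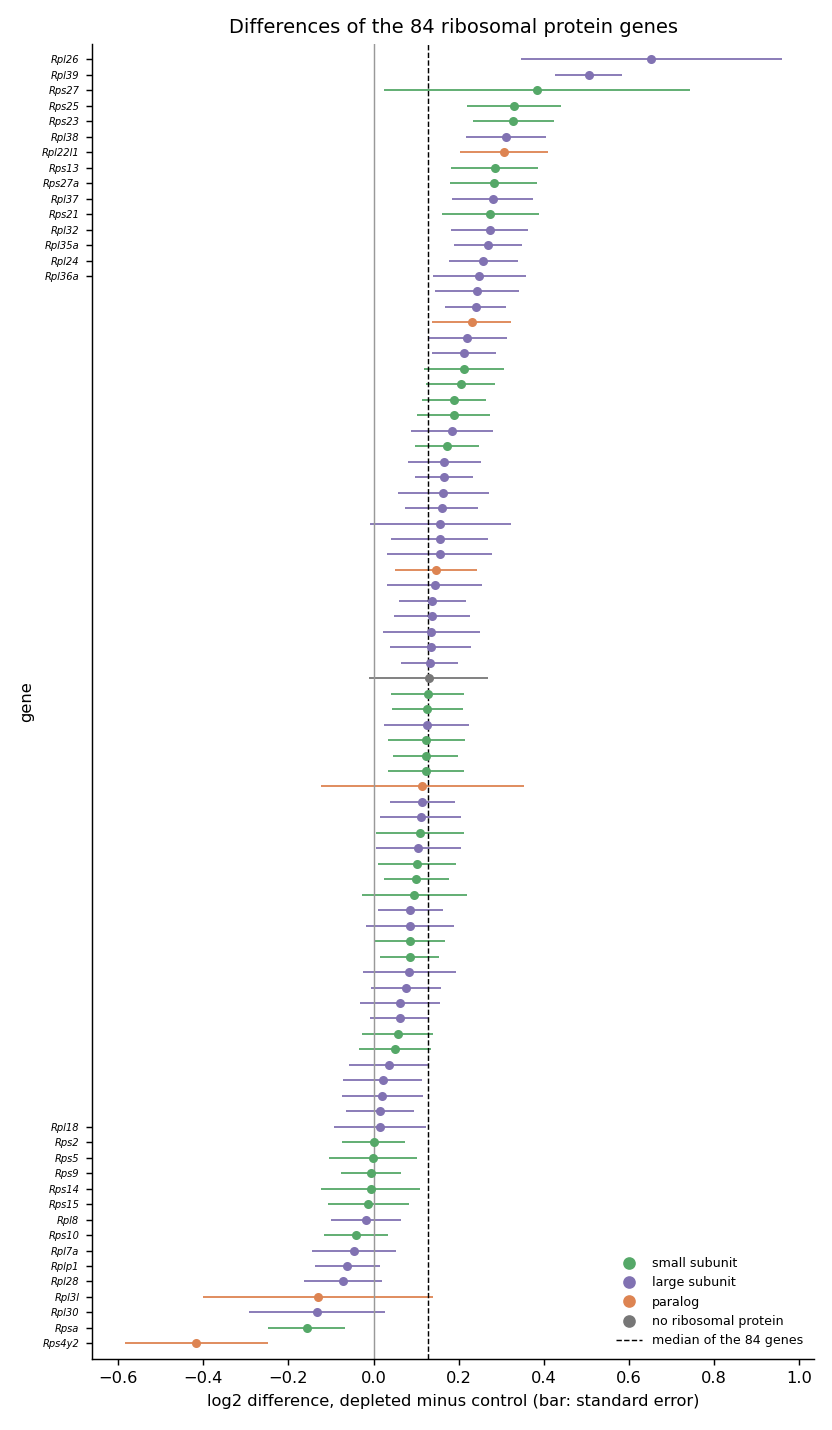
Difference of each of the 84 genes between depleted and control mice on the log2(FPKM + 1) scale (horizontal axis), with its standard error from limma, ordered by size, coloured by class and named for the 15 genes at either end. The dashed line is the median, 0.13, and 71 points lie to the right of 0, from Rpl26 at 0.65 with a wide error down to Rps4y2 at -0.42.

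Among the paralogs, Rpl22l1, whose protein can take the place of Rpl22, was at 159, 135 and 156 FPKM in control and 197, 162 and 199.8 FPKM in depleted mice. The groups did not overlap (difference 0.31 ± 0.10, unadjusted p = 0.0167). Its mean level per length was 3.02 times that of Rpl22 itself, which stood at 52.4 ± 4.25 and 58.9 ± 3.82 FPKM (difference 0.17 ± 0.09). Rpl36al was at 132, 124 and 136 and 172, 137 and 153 FPKM, where A5 was less than 1 FPKM above A3 (difference 0.23 ± 0.09), and its parent Rpl36a at 239 ± 26.6 and 284 ± 32.7 FPKM (difference 0.25 ± 0.11). Rps27l, a p53 target in other tissues, was at 26.8, 20.1 and 25.4 and 29.8, 16.8 and 34.9 FPKM, with A5 the lowest and A6 the highest of the 6. Rpl7l1 was at 19.7 ± 1.85 and 21.9 ± 1.46 FPKM, and Rpl3l, a muscle gene, was near the filter at 0.597 ± 0.387 and 0.477 ± 0.424 FPKM. The coding sequences of these pairs differ enough to be told apart in most places: identity was 66.9% for Rpl22 with Rpl22l1, 87.7% for Rpl36a with Rpl36al, 61.0% for Rps27 with Rps27l, 73.1% for Rpl3 with Rpl3l and 51.2% for Rpl7 with Rpl7l1.

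Rps4y2 was the one gene of the 84 that was lower at an unadjusted p-value under 0.05. It was listed at 19.7, 16.97 and 22.3 FPKM in control and 15.8, 17.2 and 10.9 FPKM in depleted mice, and A5 lay slightly above A2 (difference -0.42 ± 0.17, unadjusted p = 0.0371, adjusted p = 0.451, limma). Without A6 the difference was -0.23. The symbol is an older one of Rps4l, which lies on chromosome 6 and not on the Y chromosome, and for which GENCODE M21 annotates no coding transcript.

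The X chromosome holds 4 of the core genes, as given by GENCODE M21, and all were higher on average: Rpl39 as above, Rpl36a, Rps4x (354, 307 and 351 and 369, 385 and 384 FPKM, without overlap) and Rpl10 (376, 319.6 and 396.1 and 377, 433 and 428 FPKM, with overlap). Xist, the RNA of the inactive X chromosome, was at 4.74 FPKM in A3 and at 30.9 to 46.7 FPKM in the other mice, and the 4 Y-linked genes Ddx3y, Eif2s3y, Kdm5d and Uty summed to 5.56 FPKM in A4 and to at most 0.16 in the others. The part of this in the X-linked values was not tested. Without A3 the differences of Rpl39 and Rps4x were 0.54 and 0.20, and without A4 they were 0.49 and 0.19.

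The levels themselves ran from a mean of 0.537 FPKM (Rpl3l) to one of 961 FPKM (Rps29). The median of the 84 gene means was 299 FPKM, against 9.27 FPKM for all genes tested, and 46 of the 200 most abundant genes were among the 84. The highest were Rps29 at 945 ± 96.5 FPKM in control and 976 ± 26.3 in depleted mice, Rpl41 at 843 ± 92.1 and 941 ± 119.95, Rplp1, and Rps15 at 735 ± 87.02 and 726 ± 32.5 FPKM (SD, n = 3), with unadjusted limma p-values of 0.562, 0.205, 0.445 and 0.899. Rpl41 has a coding sequence of only 75 bases, Rps29 one of 168 and Rpl39 one of 153. The FPKM of a short transcript depends strongly on how its effective length is counted. The lengths of the whole transcripts of these genes were not examined here.

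At the other end, 6 of the 77 core genes had a mean under 100 FPKM: Rps27, Rpl34, Rpl30, Rps15a, Rpl22 and Rpl26. For 4 of them most of the level stood in the row of a near-identical copy. Ribosomal protein genes have left many processed pseudogenes, and 80 of the 84 genes share at least 1 run of 75 coding bases, the length of a read, with another annotated gene, 71 of them over at least 20% of such runs. Of 702 annotated genes that share such a run, only 16 have a row of their own in the table. The following stretches show how alike the copies are, with bases that differ in capitals (GENCODE M21, coding strand, 5′ to 3′). For Rps27 coding bases 1 to 90 are shown once, since Gm9846, now named Rps27rt (chromosome 9, 114982366 to 114982739, GRCm38), has the same 252 coding bases throughout. For Rpl30 and its copy Gm12191, coding bases 7 to 96 are shown, and for Rpl31 and Rpl31-ps12 coding bases 33 to 122.
Rps27 and Gm9846: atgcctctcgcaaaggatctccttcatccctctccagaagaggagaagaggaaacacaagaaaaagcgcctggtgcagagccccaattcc
Rpl30: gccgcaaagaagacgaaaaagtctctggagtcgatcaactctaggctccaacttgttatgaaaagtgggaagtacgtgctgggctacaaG
Gm12191: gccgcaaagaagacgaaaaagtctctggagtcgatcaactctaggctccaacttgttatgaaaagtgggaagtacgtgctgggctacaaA
Rpl31: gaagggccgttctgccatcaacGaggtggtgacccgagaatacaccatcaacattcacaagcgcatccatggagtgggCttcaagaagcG
Rpl31-ps12: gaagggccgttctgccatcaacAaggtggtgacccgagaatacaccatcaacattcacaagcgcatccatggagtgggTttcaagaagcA

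Rps27, a zinc finger protein of the small subunit, was listed at only 3.87, 1.67 and 4.92 FPKM in control and 6.97, 5.20 and 2.46 FPKM in depleted mice, while Gm9846 was at 636, 648 and 734 and 968, 803 and 952 FPKM. The row Rps27 held 0.526% of the sum of both. Summed, the level was 640.3, 649.9 and 739 FPKM in control and 975, 808 and 955 FPKM in depleted mice, without overlap, and the difference was 0.43 ± 0.09 (unadjusted p = 0.00168, adjusted p = 0.335, limma). This sum was formed after the values had been seen. The reads of both genes cannot be told apart over their coding part, so which of them the reads came from is not known.

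The row Rpl34 held 3.67% of its sum with Rpl34-ps1, at 14.4, 11.8 and 10.1 and 10.7, 14.3 and 15.8 FPKM against 323, 273 and 345 and 362, 342 and 375 FPKM. The sum left the groups apart, by 0.20 ± 0.09 (unadjusted p = 0.0578). The row Rpl30 held 6.36% of its sum with Gm12191, and the direction depended on the row: Rpl30 alone was at 28.4 ± 6.78 and 25.4 ± 1.61 FPKM, lower on average, and the sum was at 399 ± 35.5 and 447 ± 41.1 FPKM, higher on average, by 0.16 ± 0.09 and with overlap. Rpl26 had the largest difference of the 84, 0.65 ± 0.31, with values of 47.2, 85.8 and 90.03 and 167, 112 and 76.99 FPKM that scattered within each group. Summed with Gm15772, which was at 499, 423 and 545 and 529, 462 and 612 FPKM, the difference was 0.21 ± 0.11. Gm15772 differs from Rpl26 at 2 of 435 coding bases.

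**Figure D4:**
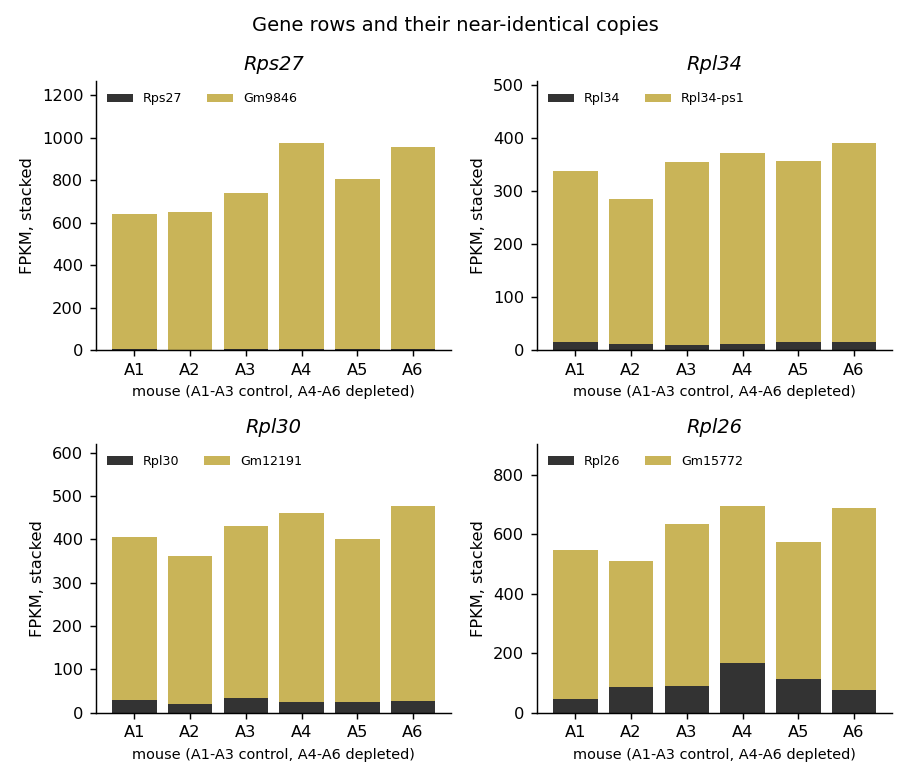
Stacked FPKM (vertical axis, from 0) of 4 genes (dark) and of the near-identical copy that has a row of its own in the table (yellow) in each mouse. The copy holds most of the sum in every mouse, and the sums of Rps27 and Gm9846 are 640 to 739 FPKM in the control and 808 to 975 FPKM in the depleted mice.

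The other copies with rows were lesser. Symbols of the kind "Rpl34-ps1", left out by the rule, numbered 6 in the table, and beside Rpl34-ps1 they belonged to Rpl31, Rplp2, Rps15a (2 rows) and Rps19. Rpl31-ps12 was at 11.8, 13.3 and 15.7 and 26.6, 15.8 and 14.7 FPKM beside 324 ± 36.02 and 348 ± 30.9 FPKM for Rpl31. Rps15a-ps6 was at 2.72, 1.82 and 3.04 and 4.36, 4.55 and 7.21 FPKM, without overlap, and Rps15a-ps4 at 5.21, 3.33 and 4.14 and 3.34, 4.43 and 5.38 FPKM. Rplp2-ps1 was at 1.97, 1.18 and 3.22 FPKM in control and 6.94, 2.09 and 7.32 FPKM in depleted mice, and Rps19-ps3 at 2.07, 3.17 and 2.17 and at 0.21, 2.09 and 2.25 FPKM, beside 244 ± 21.2 and 263 ± 42.7 FPKM for Rps19 itself. Rps19bp1, the matched gene that encodes no ribosomal protein, was at 20.1, 17.6 and 18.9 and 24.6, 16.5 and 21.97 FPKM (difference 0.13 ± 0.14). In another alternative, rows outside the rule that reached 0.5 FPKM and shared at least 5% of a gene's runs of 75 bases were added to that gene. Then 72 of the 84 were higher on average, 22 (26.2%) at an unadjusted limma p-value under 0.05, and the median stayed at 0.13. In the main fit 48% of all genes were higher on average and 4.79% at that p-value. These shares were not counted for this alternative. The added rows included the protein-coding genes BC004004 (to Rpl21) and Wdr89 (to Rplp2), and did not include Rplp2-ps1. Among the 13 genes with under 20% shared runs, 9 were higher on average, against 48% of all genes tested, and the median was 0.12.

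The differences among the 84 genes went with the base composition of their coding sequences (for Rps4y2, of its whole transcript). The 28 genes of lowest GC content (39.9% to 50.6%) had a median difference of 0.21, with 27 higher on average and 13 higher at an unadjusted p-value under 0.05, against 6.71% of the other genes in that range of GC content. The middle 28 (50.6% to 54.6%) had a median of 0.13, with 27 higher on average and 7 higher at that p-value, against 5.19%. The 28 of highest GC content (54.7% to 61.6%) had a median of 0.02, with 17 higher on average, 1 higher at that p-value (Rpl37) and 1 lower (Rps4y2), against 2.61% higher and 9.09% lower. Across the genes Spearman's rho between the difference and the GC content was -0.53, and between the difference and the coding length -0.41. The other genes of the table went the same way by less: over the same 3 ranges of GC content their medians were 0.04 (4976 genes), 0.01 (3102) and -0.06 (4634), and rho over all 14258 genes with a GC value was -0.26. These correlations are across genes of the same libraries, and genes are not independent replicates. The relation was strongest in A6 (rho -0.62 between level relative to the control mean and GC content), and it was -0.39 in A5, -0.29 in A4, 0.17 in A1, -0.20 in A2 and -0.04 in A3.

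**Figure D5:**
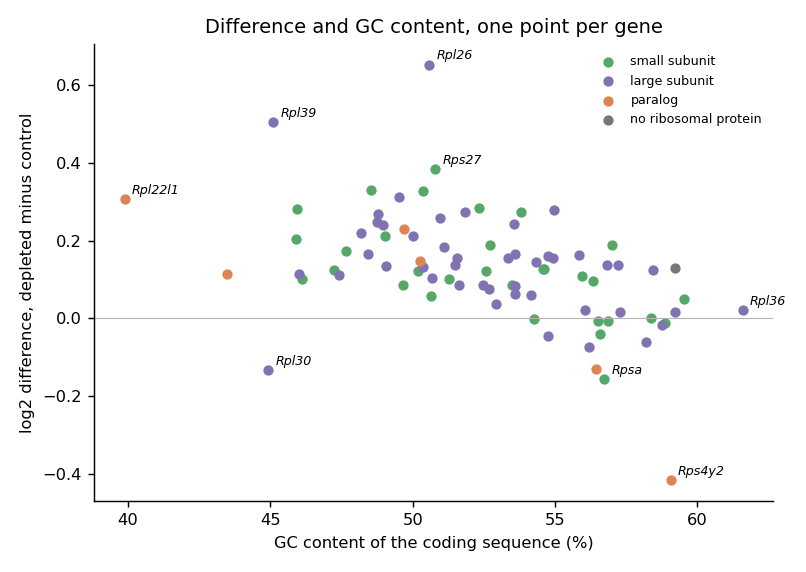
Difference between depleted and control mice on the log2(FPKM + 1) scale (vertical axis) against the GC content of the coding sequence in percent (horizontal axis), with 1 point per gene, coloured by class. Genes under 50.6% GC had a median of 0.21 and those above 54.7% one of 0.02, while Rpl30 and Rpl26, whose reads are shared with a copy, lie far from the rest.

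After a correction of each library for GC content, chosen after the values had been seen, 76 of the 84 genes were higher on average and the median was 0.12. The medians of the 3 ranges of GC content were then 0.17, 0.12 and 0.07, 18 genes were higher at an unadjusted p-value under 0.05 (21.4%, against 4.39% of all genes in that fit), and 0 had an adjusted p-value under 0.1. Rpl39 kept a difference of 0.45 (unadjusted limma p-value 0.000342), and that of Rps4y2 was -0.36 (unadjusted limma p-value 0.0579).

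The promoters were looked at as a description of what the genes share. RefSeq starts were found for 62 of the 83 ribosomal protein genes (RefSeq, GRCm38.p6, 250 bases before to 50 after the start). A run of 8 or more pyrimidines within 25 bases of the start was present in 46.8% of them, against 19.4% of all 27025 promoters. CCGGAAG, on either strand, was in 38.7% against 9.12%, AAGATGGC, on either strand, in 8.06% against 2.88%, and TATAAA, on the coding strand in the 50 bases before the start, in 1.61% against 2.88%. The median differences of the genes with and without these features were 0.12 with the pyrimidine run (29 genes) and 0.15 without (33 genes), 0.13 both with CCGGAAG (24 genes) and without it (38 genes), and 0.20 with AAGATGGC (5 genes) and 0.13 without (57 genes). The following windows, from 40 bases before to 20 bases after the start with the longest pyrimidine run in capitals, show a gene whose groups were apart and has such a run (Rpl38), one whose groups were apart and has none (Rps23), the gene of the lowest p-value (Rpl39), and 2 that were lower on average and carry long runs (Rpl7a and Rps10).
Rpl38, chr11:114668540-114668599, plus strand: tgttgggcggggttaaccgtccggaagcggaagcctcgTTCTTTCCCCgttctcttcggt
Rps23, chr13:90923082-90923141, plus strand: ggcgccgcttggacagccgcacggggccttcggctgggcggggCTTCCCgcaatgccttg
Rpl39, chrX:37085203-37085262, minus strand: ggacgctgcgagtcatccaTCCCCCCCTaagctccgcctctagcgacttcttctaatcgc
Rpl7a, chr2:26910767-26910826, plus strand: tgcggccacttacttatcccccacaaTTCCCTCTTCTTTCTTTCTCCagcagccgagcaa
Rps10, chr17:27635225-27635284, minus strand: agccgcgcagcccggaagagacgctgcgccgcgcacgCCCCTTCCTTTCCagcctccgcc

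Rpl7a, with the run of 21 pyrimidines, differed by -0.05 ± 0.10, and Rps10, with a run of 13, by -0.04 ± 0.07. Rps23, whose longest run is 6, differed by 0.33 ± 0.10, and Rpl27a, with a run of 20, by 0.17 ± 0.07 without overlap. These are single examples: 25 of the 29 genes with a run of 8 or more near the start were higher on average. Of the 33 genes without one, 30 were, against 48% of all genes tested. A run in the letters says nothing of which start the cortex uses or of how the mRNA is translated.

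Proteins of the cytosolic ribosome that fall outside the rule gave smaller values. Fau, made as a fusion with a ubiquitin-like protein, was at 351, 312 and 384 and 396.5, 338 and 341 FPKM, and Gnb2l1, the scaffold protein Rack1 of the small subunit, at 163, 136 and 173 and 161, 147 and 162 FPKM. Their differences were 0.04 ± 0.10 and 0.0031 ± 0.10, with overlap in both, and in each of them A5 lay below A3, as it did for 60 of the 84.

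The proteins of the mitochondrial ribosome, a separate machine that makes a few respiratory chain subunits, had a median difference of 0.04 over 76 genes. Of these 45 were higher on average, 4 were higher at an unadjusted p-value under 0.05 and 2 lower (4.79% and 5.74% of all genes). Mrps6 was at 30.6, 27.4 and 34.1 and 41.1, 34.7 and 45.7 FPKM (difference 0.39 ± 0.12), and Mrpl40 was lower, at 26.1, 25.8 and 26.5 and 20.8, 23.02 and 22.3 FPKM (difference -0.24 ± 0.08). Mrpl11 and Mrps25 were the next at either end, at 0.27 ± 0.12 and -0.23 ± 0.19. Nuclear genes of oxidative phosphorylation, likewise short and abundant, had a median of 0.02 over 87 genes, with 5 higher and 8 lower at that p-value, against the same shares of all genes. At the ends of that list were Ndufaf6 (0.47 ± 0.17) and Cox7b2 (0.44 ± 0.37), and Cox7a1 (-1.03 ± 0.43) and Cox8b (-1.20 ± 0.19), the last 2 at under 6 FPKM in every mouse.

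Translation factors lay on both sides of 0. Of 13 elongation and release factors 8 were lower on average, as were 7478 of all 14385 genes tested. Eef2 moves the ribosome along by a codon and is itself a TOP mRNA. It was at 441, 385 and 428 FPKM in control and 334, 365 and 369.7 FPKM in depleted mice. Its groups did not overlap (difference -0.23 ± 0.08, unadjusted p = 0.0171). Eef1e1 differed by -0.17 ± 0.11, Gspt1 by 0.08 ± 0.08 and Eef2k, the kinase that inhibits Eef2, by 0.13 ± 0.10. Of 37 initiation factors 31 were higher on average, 7 at an unadjusted p-value under 0.05 (48% and 4.79% of all genes), with a median of 0.07. The largest differences were those of Eif3a, at 31.8, 34.1 and 33.5 and 51.96, 39.95 and 40.1 FPKM (0.39 ± 0.11), and Eif3e, at 53.9, 55.7 and 55.1 and 80.6, 58.7 and 68.9 FPKM (0.32 ± 0.11), both subunits of the factor that holds the small subunit. The smallest were those of Eif4g2 (-0.13 ± 0.09) and Eif3b (-0.06 ± 0.08). In Eif3a and Eif3e the mouse A4 was the highest. The median of the 37 initiation factors relative to the control mean was 0.21 in A4, but 0.03 in A5 and 0.04 in A6. In the control mice A1, A2 and A3 it was -0.0023, -0.0020 and 0.02.

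Of 22 other TOP mRNAs, 17 were higher on average and 8 at that p-value, with 1 lower (Eef2) and a median of 0.09, against 4.79% higher and 5.74% lower of all genes at that p-value and 48% higher on average. Their largest differences were those of Snhg12 and Snhg1, hosts of small nucleolar RNAs, and rested on A4: Snhg12 was at 25.7, 31.97 and 29.4 FPKM in control and 92.4, 35.9 and 36.96 FPKM in depleted mice, and Snhg1 at 16.3, 12.5 and 16.1 and 55.7, 17.6 and 17.1 FPKM. Without A4 they differed by 0.32 and 0.21. Hnrnpa1 was second from the low end, at -0.15 ± 0.17.

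Factors that assemble ribosomes in the nucleolus and cytoplasm had a median of 0.15 over 44 genes, 34 of them higher on average, 6 higher and 2 lower at an unadjusted p-value under 0.05, and 13 higher and 3 lower without overlap. Of all genes tested, 48% were higher on average, 4.79% and 5.74% higher and lower at that p-value, and 8.21% and 9.38% higher and lower without overlap. The median of the 44 genes relative to the control mean was 0.21 in A4, but 0.02 in A5 and 0.09 in A6. In the control mice A1, A2 and A3 it was -0.04, -0.02 and 0.04. Gnl3, or nucleostemin, was at 12.1, 13 and 14.3 FPKM in control and 27.1, 19.1 and 17.8 FPKM in depleted mice (difference 0.64 ± 0.15, unadjusted p = 0.00272). Ltv1, an assembly factor of the small subunit, was at 8.03, 5.92 and 7.59 and 9.62, 11.2 and 8.76 FPKM (difference 0.41 ± 0.14). Rrp9 and Rrp12, both needed to process ribosomal RNA, were lower in all depleted mice, at 13.99, 12.8 and 12.7 and 10.7, 11.1 and 10.8 FPKM and at 9.64, 9.81 and 11.1 and 8.59, 7.86 and 8.16 FPKM. No gene of this list, nor of any list of the translation machinery, had an adjusted p-value under 0.1.

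The 26 genes of mTORC1 and LARP1 signalling, through which TOP mRNAs are controlled, had a median of 0.02, with 13 higher and 13 lower on average and 2 at an unadjusted p-value under 0.05 in each direction (4.79% of all genes higher, 5.74% lower). Rheb, the small GTPase that switches mTORC1 on, was at 63.7, 66.99 and 65.9 and 70.3, 72.5 and 80.4 FPKM, and Rragc at 32.3, 34.8 and 33.6 and 39.5, 38.7 and 35.8 FPKM, both without overlap. Mtor and Larp1 differed by 0.11 ± 0.08 and 0.06 ± 0.08, and Eif4ebp1 and Mycn, at low levels, by -0.36 ± 0.25 and -0.32 ± 0.21. Of 11 genes of the p53 response that is known to follow failed ribosome assembly, 8 were higher on average (48% of all genes). At that p-value 0 were higher and 1, Phlda3, was lower. Relative to the control mean their median was 0.25 in A4, but -0.06 in A5 and -0.02 in A6. Cdkn1a was at 10.9, 11.1 and 13.04 and 44.6, 14.2 and 11.9 FPKM, with only A4 far above the rest, and without A4 it differed by 0.14. Pmaip1 and Sesn2 differed by 0.40 ± 0.24 and -0.16 ± 0.18, Mdm2 by 0.16 ± 0.12, and Phlda3, which did not overlap between the groups, by -0.30 ± 0.09.

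Outside the rule, the 10 genes whose log2 levels over the 6 mice were most like the mean of the 84 were Ctc1 (Pearson's r 0.99), Mocs1 (0.99), Lrpap1 (0.98), Copg2 (0.98), Rnf4 (0.98), Ppp6r3 (0.98), 6330403K07Rik (0.97), Coq7 (0.97), Mrps9 (0.97) and Use1 (0.96), picked from 14301 genes over 6 mice. Only Mrps9 among them encodes a ribosomal protein, of the mitochondrial ribosome.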

How the data were processed

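Cortical RNA of 6 mice was analysed. Per the labels and the study's methods, the authors made poly(A)-selected libraries, read both ends of each fragment over 75 bp, used TopHat for alignment to mm9 and RSEM for known transcripts. The FPKM values the authors deposited carry a TMM scaling between libraries and 2 decimals. How RSEM divides a read among near-identical copies bears on these genes. Tool versions are not given in the sources used here.

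Genes whose mean reached 0.5 FPKM (14385) were taken to log2(FPKM + 1), a scale that understates the change of low genes, and compared with limma 3.58.1 (lmFit, eBayes with trend), Benjamini-Hochberg adjustment and a threshold of 0.1, without covariates. Single genes also had an exact two-sided permutation test. The authors' test on counts was not repeated, since only FPKM was used here. The fit was tested on simulated data with 200 of 14385 genes changed. At a change of 0.3 on the log2 scale, 0 of the 200 were recovered at the adjusted threshold. At a change of 1, 157 were recovered, and 18 of 175 calls were false. A lack of calls thus does not show that genes were unchanged by about 0.3. Each mouse is 1 library. A limma p-value sets the difference between groups against the spread between mice of a group, which eBayes moderates with a trend over all genes.

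The members and lists were chosen with earlier results of these data known. Genes named were those with the largest and smallest differences and levels in each class, the 15 smallest unadjusted p-values, Rplp0 to Rplp2, Rpsa, Rps19bp1, genes with a "-ps" row, and the ends of each list. Members were also named where groups by position, chromosome or copies called for it, after their values were seen. Symbols were looked up in GENCODE M21 (GRCm38) for positions and coding sequences, and no coordinate was converted. Some results are not reported here. Depth was estimated from the spacing of low FPKM values. Alternatives were other pseudocounts, filters, scalings, eBayes settings, summed copies, a GC-content correction and leaving out each mouse. Python 3.11.15 and R 4.3.3 were used.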

Additional observations from a re-analysis of the deposited data

How the results depend on the processing

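The direction of the summary results was the same under every alternative run. The median log2 difference of the 84 genes was 0.13 in the main fit, from 0.09 (quantile normalization) to 0.13 (median-of-ratios scaling) under other settings, and from 0.07 to 0.18 with 1 mouse left out. The log2 ratio of the mean summed FPKM was 0.14, from 0.10 to 0.14 under other scalings and from 0.08 to 0.20 with 1 mouse left out. The count of genes higher at an unadjusted p-value under 0.05 was 21, with 11 under eBayes without trend, 12 with array weights, 16 without a filter, and 7 to 29 with 1 mouse left out. The count past the adjusted threshold was 0, with 1 (Rpl39) with array weights, and 0 to 1 with 1 mouse left out. The cause was not tested.

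Of 647 values under the alternatives, 628 kept their direction, counted over the 36 genes first chosen to be named. Members named later were not counted, such as Rpl7a, which ran from -0.13 to 0.029 with 1 mouse left out. Small differences turned in 9 of the 36 genes. With 1 mouse left out they ran from -0.13 to 0.0047 for Rpl28, from -0.32 to 0.017 for Rpl30, from -0.30 to 0.13 for Rpl3l, from -0.061 to 0.091 for Rplp0, from -0.11 to 0.0064 for Rplp1, from -0.11 to 0.050 for Rps15, from -0.0066 to 0.23 for Rps19, from -0.090 to 0.41 for Rps27l and from -0.015 to 0.13 for Rps29. Array weights gave -0.039 for Rplp0 and -0.018 for Rps27l, quantile normalization -0.015 for Rps29, the GC-content correction 0.045 for Rps15 and the summing of copies 0.16 for Rpl30. The last 2 settings, and the median over genes with under 20% shared runs (0.12), were chosen after seeing the data.

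No paired analysis was possible, because the control mice were littermates but no litter or pair is given for a single mouse. With 3 mice a group the exact test cannot go below 0.1, and the labels give no batch. The lower estimated depth of the depleted libraries, ambiguous in A5, makes low genes such as Rpl3l less certain. The low row Rps27 depends as well on how reads are divided between it and Gm9846.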
